A study of Rattus norvegicus with 15 samples.

Results

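The genes described here are the matrix metalloproteinases (Mmp), the disintegrin metalloproteinases (Adam), the secreted disintegrin metalloproteinases with thrombospondin repeats (Adamts) and the tissue inhibitors of metalloproteinases (Timp) of rat liver. They were chosen by name alone: every protein-coding row of the gene table whose symbol starts with Mmp, Timp or Adam followed by a number, or with Adamts. This gave 73 of the 32623 genes in the table, of which 22050 are protein coding: 21 Mmp, 25 Adam, 19 Adamts, 4 Adamts-like and 4 Timp genes. The group is a family by name and not by activity. The Adamts-like proteins have no protease domain, Adam11, Adam22 and Adam23 lack a working zinc site, and many Adam genes are known for roles in sperm.

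RNA sequencing of whole liver compared male Wistar rats in 3 groups. The control group (n = 4) received no treatment, the cirrhosis group (n = 5) inhaled carbon tetrachloride (CCl4) for 12 weeks with phenobarbital at 0.35 g/L, and the cirrhosis & eplerenone group (n = 5) received the same and, from week 8 to week 12, 100 mg/kg eplerenone, a blocker of the mineralocorticoid receptor. No rat carried a transgene, and the livers of both CCl4 groups were taken 7 to 10 days after the last CCl4. The rats sequenced were a subset that the authors picked for a successful induction of cirrhosis or a successful treatment, so the groups are not random samples of the rats treated. The controls received neither CCl4 nor phenobarbital, so the actions of these agents cannot be told apart.

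Metalloproteinases hold a zinc ion in the active site, are made as latent proenzymes and cut collagens, proteoglycans, elastin and cell surface proteins. Timp proteins bind the active enzymes and block them, and scar in a fibrotic liver persists or resolves with the balance of matrix made, matrix cut and proteases inhibited. Stellate cells turned myofibroblasts, macrophages and bile duct cells are the known sources of many of these genes in injured liver, and CCl4 damages mainly the hepatocytes around the central vein, which turn it into a radical.

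Each library held 16157491 to 21574767 reads counted on genes, and levels are given as FPM, fragments per 1000000 of the library's effective size. The lowest level that can be told from none, taken as 3 counts, lay between 0.121 and 0.191 FPM. Some libraries stood apart from their groups. On the first principal component of the 500 most variable genes, with 66.3% of their variance, cirrhosis replicate 5 lay at 13.5 and the other 4 cirrhosis rats at -47.4 to -37.4, while cirrhosis & eplerenone replicate 3 lay at -43.1 and the other 4 at -17.8 to 26.7. Cirrhosis replicates 1 and 3 shared low values: 599 of 14417 tested genes (4.15%) lay in both more than 2-fold below each of the other 3 cirrhosis libraries, against 0.125% to 0.701% for the other 9 pairs, and Adam9 and Adam10 were among them. The hepatocyte markers Alb, Ttr, Apoa1, Cps1 and Serpina1 together made up 145676 to 160823 FPM in control, 81558 to 149325 FPM in cirrhosis and 79952 to 139656 FPM in cirrhosis & eplerenone, so every library had the profile of liver. The labels number the rats with a prefix that they do not explain. The prefixes were 13 and 16 in control and 15 and 20 in both CCl4 groups, so prefix and CCl4 cannot be told apart.

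Of the 73 genes, 44 had enough reads for a test: 14 Mmp, 10 Adam, 12 Adamts, 4 Adamts-like and all 4 Timp genes. No read was counted in any of the 14 libraries for 9 genes (Mmp1, Adam3a, Adam5, Adam18, Adam30, Adam34, Adam34l, Adamts18 and Adamts20). Another 20 had a few reads and were not tested (Mmp1b, Mmp3, Mmp8, Mmp10, Mmp13, Mmp21, Adam2, Adam6a, Adam7, Adam12, Adam21, Adam22, Adam24, Adam28, Adam32, Adamts3, Adamts6, Adamts16, Adamts17 and Adamts19). The classical interstitial collagenases, which make the first cut in fibrillar collagen, were thus hardly seen: Mmp1 was at 0 throughout, Mmp13 (collagenase 3) had at most 3 counts and Mmp8 (neutrophil collagenase) at most 31 counts in a library. Reads with several map positions entered the counts and a strand setting is not given in the sources used here, so values of near-identical copies (Mmp1 and Mmp1b, Adam34 and Adam34l) and of overlapping genes are uncertain.

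**Figure D1:**
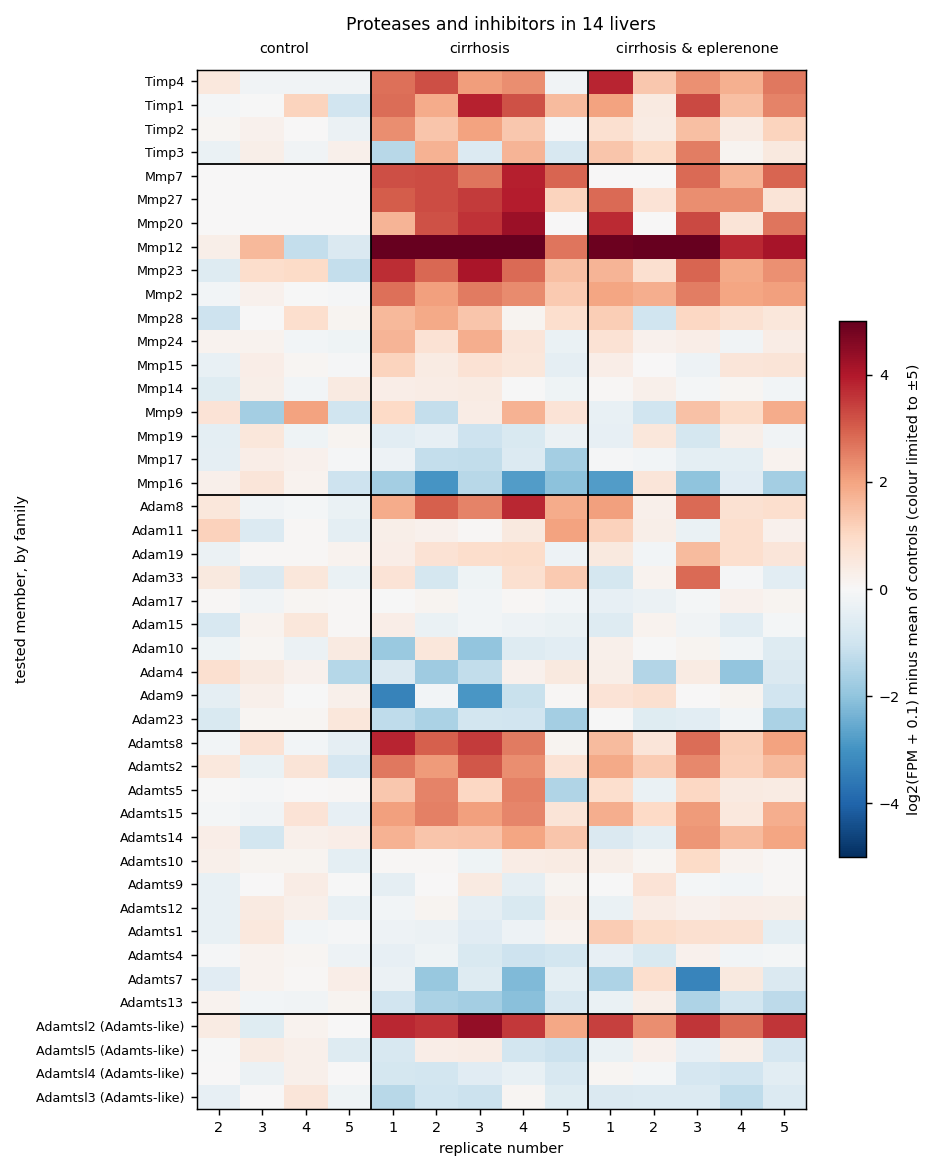
Heat map of the 44 tested genes (rows, by family) in 14 livers (columns, by group and replicate number). Colour gives log2(FPM + 0.1) minus the mean of the 4 control rats, with colours limited to 5 in either direction. Red rows of Timp, Mmp and Adamts genes run through cirrhosis replicates 1 to 4 and are paler in cirrhosis replicate 5.

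Cirrhosis against control asks which proteases and inhibitors differ in the scarred liver. Of the 44 tested genes 15 were higher and 5 lower in cirrhosis with edgeR's quasi-likelihood test, counting as called any gene whose Benjamini-Hochberg FDR (false discovery rate, adjusted over all 14417 genes) was under 0.05. Of all genes tested 20.2% were called, 13.4% higher and 6.71% lower. Of the 4 Timp genes 3 were higher and none lower, and of the 40 other genes 12 were higher and 5 lower, with a median log2 fold change (log2FC) of 0.13. By family 7 of 14 Mmp genes were higher and 2 lower, 1 of 10 Adam genes was higher and 1 lower, 3 of 12 Adamts genes were higher and 1 lower, and 1 of 4 Adamts-like genes was higher and 1 lower. The median log2FC was 2.17 for the Timp genes, 1.26 for Mmp, -0.12 for Adam, 0.04 for Adamts and -0.53 for the Adamts-like genes, beside -0.01 for all genes. Of the 44, 7 (Mmp7, Mmp20, Mmp27, Mmp28, Timp4, Adamts5 and Adamts8) passed the filter on low counts through the CCl4 groups alone, so they had little room to come out lower, and 5 of these 7 are among the 15 called higher. Mmp16, called lower, passed it with no cirrhosis library at the filter's level. DESeq2 called 22 of the 44 (27.8% of all genes), and 20 were called by both tools (20.1% of all genes). Groups did not overlap for 10 tested genes that were higher (11.2% of all genes tested) and 4 that were lower (9.03%).

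This count depended on the cirrhosis libraries used. Without cirrhosis replicates 1 and 3, a choice made after seeing the data, 9 of the genes were called (Mmp2, Mmp7, Mmp12, Mmp23, Mmp27, Adam8, Adamts2, Adamts15 and Adamtsl2, all higher) and none of the Timp genes, while 7.17% of all genes were called. Without cirrhosis replicate 5 and cirrhosis & eplerenone replicate 3, the libraries on the far side of the first principal component from their groups, 23 of the genes and 34.2% of all genes were called. In bulk tissue, fewer cells of a type and less RNA per cell cannot be told apart, and markers of several cell types moved with these genes. The summed level of 6 stellate cell and myofibroblast markers, of which Col1a1 is also among the substrates below, was 51.0 to 85.0 FPM in control, 73.3 to 267 FPM in cirrhosis, where replicate 5 was lowest, and 115 to 233 FPM in cirrhosis & eplerenone. In cirrhosis 4 of these 6 were called higher, with 4 of 4 cholangiocyte markers, 3 of 3 tested neutrophil markers, 2 of 6 macrophage markers (Trem2 and Gpnmb) and 2 of 4 tested lymphocyte markers. The macrophage marker Cd163 was called lower, the neutrophil marker Mpo was at 0 in control, and none of the 3 endothelial markers in the table was called. The 6 macrophage markers did not move as a set: 3 had a log2FC above 0 and 3 below, with a median of 0.05. Their summed level was 163 to 286 FPM in control and 146 to 305 FPM in cirrhosis. Of the 6 stellate cell and myofibroblast markers 5 had a log2FC above 0 and 1 below, at -1.09. The part of these cell types in the results was not tested.

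**Figure D2:**
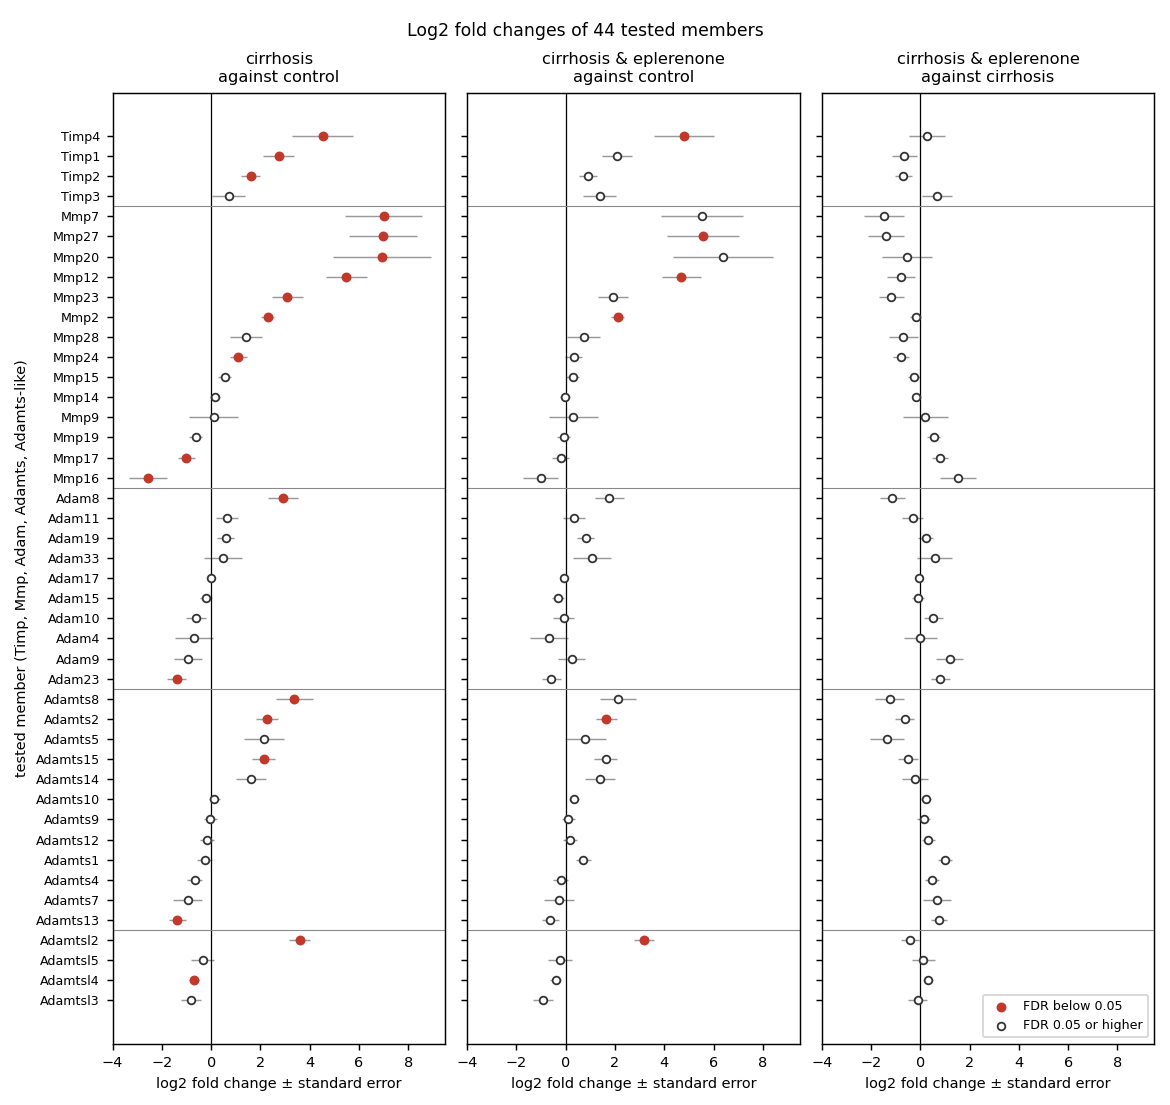
Log2 fold changes (horizontal axis) with standard errors of the 44 tested genes (rows, by family) in the 3 comparisons. Mmp7, Mmp20 and Mmp27 had no read in control, so their points against control are fitted values and not measured folds. Filled red points have FDR below 0.05: 20 in cirrhosis against control, 6 in cirrhosis & eplerenone against control and 0 in cirrhosis & eplerenone against cirrhosis.

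Among the inhibitors, Timp1, the Timp known to be induced in fibrotic liver (ENSRNOG00000010208, chromosome X), was 6.67-fold higher in cirrhosis. In rat by rat order it was 1.81, 1.91, 4.33 and 0.954 FPM in control replicates 2 to 5, 14, 7.39, 29.3, 18.6 and 6.01 FPM in cirrhosis replicates 1 to 5, and 8.18, 2.69, 20.2, 5.70 and 11.3 FPM in cirrhosis & eplerenone replicates 1 to 5. Every cirrhosis rat lay above every control, and only cirrhosis & eplerenone replicate 2 fell within the control range. The log2FC for cirrhosis against control was 2.74 (SE 0.62) with an FDR of 0.00824 (edgeR's quasi-likelihood test, Benjamini-Hochberg adjusted), the test behind every FDR given here. Without cirrhosis replicates 1 and 3 the log2FC of Timp1 was 2.28 with an FDR of 0.0502.

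Timp2 (ENSRNOG00000003148, chromosome 10), which blocks Mmp2 and is also part of the complex that activates it, was 3.02-fold higher in cirrhosis. It was 11, 12.0, 10.4 and 8.46 FPM in control, 53.0, 27.2, 41.9, 26.3 and 10.1 FPM in cirrhosis, and 18.2, 13.7, 29.5, 13.9 and 22.6 FPM in cirrhosis & eplerenone, in the same order of replicates, which holds for the other genes too. Cirrhosis replicate 5 lay within the control range, and the other 4 cirrhosis rats and all 5 cirrhosis & eplerenone rats lay above it. The log2FC in cirrhosis was 1.60 (SE 0.37, FDR 0.00977), and without cirrhosis replicates 1 and 3 it was 1.05 with an FDR of 0.0797.

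Timp4, best known from heart, was close to the detection limit. It had a single count in control, with 0.0603, 0, 0 and 0 FPM, was 0.666, 0.938, 0.378, 0.462 and 0 FPM in cirrhosis, and 1.48, 0.188, 0.445, 0.282 and 0.601 FPM in cirrhosis & eplerenone. Cirrhosis replicate 5 again sat with the controls. From 51 counts against 1, the level in cirrhosis was 34.5 times that in control (95% exact interval 5.93 to 1391, counting error only), with an FDR of 0.0205. The fitted log2FC of Timp4 ran from 4.13 to 6.23 with 1 library left out, highest without control replicate 2, which held the single control count, and the gene was not called without control replicate 3, 4 or 5. Timp3, which stays bound to matrix and also blocks Adam17, was not called. It was 2.17, 3.41, 2.44 and 3.37 FPM in control, 0.998, 9.63, 1.73, 9.33 and 1.55 FPM in cirrhosis, and 7.46, 5.57, 17.1, 3.10 and 3.93 FPM in cirrhosis & eplerenone. The cirrhosis rats fell on both sides of the controls, with replicates 2 and 4 above and replicates 1, 3 and 5 below, and the log2FC was 0.71 (SE 0.66, FDR 0.440).

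Among the proteases, Mmp2 (gelatinase A, ENSRNOG00000016695, chromosome 19), which cuts denatured and basement membrane collagen, was 4.91-fold higher in cirrhosis. Its levels were 7.06, 9.02, 7.57 and 7.38 FPM in control, 52.7, 32.2, 46.7, 39.9 and 19.1 FPM in cirrhosis, and 31.0, 27.3, 45.9, 30.2 and 32.7 FPM in cirrhosis & eplerenone. All 10 CCl4 rats lay above all controls, and the log2FC in cirrhosis was 2.30 (SE 0.26, FDR 0.000458). Mmp14, the membrane protease that activates Mmp2, was 30.3, 57.2, 42.2 and 63.0 FPM in control, 57.7, 60.8, 60.9, 45.4 and 39.9 FPM in cirrhosis, and 47.6, 55.4, 42.8, 49.4 and 41.9 FPM in cirrhosis & eplerenone. All 10 CCl4 rats lay within the control range, and the log2FC was 0.14 (SE 0.21, FDR 0.642). Mmp9 (gelatinase B), a product of neutrophils and macrophages, was 0.422, 0, 1.22 and 0.0636 FPM in control, 0.555, 0.0408, 0.324, 0.974 and 0.417 FPM in cirrhosis, and 0.153, 0.0626, 0.810, 0.508 and 1.09 FPM in cirrhosis & eplerenone. These ranges overlapped fully, and the control rats alone had 7, 0, 20 and 1 counts. The log2FC of 0.10 had an SE of 1.00, so a difference could not be told from none.

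Mmp12 (macrophage elastase, ENSRNOG00000030187, chromosome 8), which cuts elastin, was 44.7-fold higher in cirrhosis. It was 0.362, 1.04, 0.0610 and 0.127 FPM in control, 15.6, 18.5, 38.7, 16.7 and 2.26 FPM in cirrhosis, and 11, 13.2, 17.3, 5.02 and 6.39 FPM in cirrhosis & eplerenone. The lowest CCl4 rat, cirrhosis replicate 5, still exceeded the highest control, and the log2FC was 5.48 (SE 0.82, FDR 0.00116). Without control replicate 3, the highest control, the log2FC of Mmp12 was 6.58, and with each other library left out it was 5.02 or more. Mmp12 lies in a run of 10 neighbouring Mmp genes on chromosome 8, with no other protein-coding gene between them in RefSeq's GRCr8 annotation: Mmp13, Mmp12, Mmp1b, Mmp3, Mmp1, Mmp10, Mmp8, Mmp27, Mmp20 and Mmp7. The 4 tested genes of this run (Mmp12, Mmp27, Mmp20 and Mmp7) were each called higher in cirrhosis, and the other 6 were not tested. Mmp27, Mmp20 and Mmp7 had no read in control and were tested only because the CCl4 rats had reads, so they could not have come out lower, and 4 of 4 is no evidence that the run moved as a unit.

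The letters TGANTCA, a loose form of the core of the AP-1 binding motif with any base at N, are their own reverse complement. They were searched in the RefSeq promoters (GRCr8), which span 250 bases before to 50 after each gene start. They stood in 7 of the 10 promoters of the run (70%), in 2 of the 39 promoters of the other genes described here that had one in the table (5.13%) and in 7.33% of all 27457 promoters. Promoters were found for 49 of the 73 genes. The letters were not in the windows of Mmp1b, Mmp8 and Mmp27 nor in those of the 4 Timp genes, and a match is a description of the letters only. The stretch before the gene start is shown for Mmp12 (chr8:12866402-12866651, plus strand), with the motif in capitals 87 bases before the start, because Mmp12 had the most reads of the run, and 37-base windows around the motif are shown for Mmp20 (chr8:13074168-13074204) and Mmp7 (chr8:13132948-13132984), which were also called higher, and for Mmp13 (chr8:12782748-12782784) and Mmp3 (chr8:12925195-12925231), which carry the same letters and were barely counted, all on the plus strand.
Mmp12: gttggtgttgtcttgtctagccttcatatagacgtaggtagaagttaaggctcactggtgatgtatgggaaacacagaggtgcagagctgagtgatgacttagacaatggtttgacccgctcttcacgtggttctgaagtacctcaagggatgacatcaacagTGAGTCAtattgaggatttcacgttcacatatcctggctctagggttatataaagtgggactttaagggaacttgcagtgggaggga
Mmp20: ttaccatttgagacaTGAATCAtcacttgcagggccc
Mmp7: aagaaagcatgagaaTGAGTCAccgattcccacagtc
Mmp13: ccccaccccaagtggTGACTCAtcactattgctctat
Mmp3: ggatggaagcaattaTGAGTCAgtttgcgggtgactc
The Timp1 stretch before the gene start (chrX:3771123-3771372, minus strand) is shown beside them because Timp1 was the only Timp gene whose cirrhosis and control groups did not overlap. Its capitals mark TGAGTAA, a variant of the motif by its last letters that was searched after the first search had been seen, on both strands, and that stood in 2.75% of all promoters. It lies 108 bases before the start.
Timp1: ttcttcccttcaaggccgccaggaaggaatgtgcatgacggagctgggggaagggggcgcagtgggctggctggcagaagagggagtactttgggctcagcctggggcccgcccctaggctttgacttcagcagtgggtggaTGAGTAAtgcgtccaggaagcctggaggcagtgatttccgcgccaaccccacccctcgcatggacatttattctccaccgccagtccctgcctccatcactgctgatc

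Mmp7 (matrilysin), a product of duct epithelium, had no read in control and was 0.832, 0.857, 0.539, 1.38 and 0.655 FPM in cirrhosis, and 0, 0, 0.607, 0.226 and 0.656 FPM in cirrhosis & eplerenone. All 5 cirrhosis rats had reads, with 10 to 27 counts, and 3 of 5 cirrhosis & eplerenone rats did. Against a floor of 3 counts per control library Mmp7 was at least 4.69-fold higher in cirrhosis (FDR 0.0104). Mmp27 had no read in control and was 0.721, 0.857, 1.02, 1.44 and 0.119 FPM in cirrhosis, and 0.613, 0.0626, 0.405, 0.395 and 0.0546 FPM in cirrhosis & eplerenone. All 10 CCl4 rats had at least 1 read, and the gene was at least 4.57-fold higher in cirrhosis (FDR 0.00606). Mmp20 (enamelysin), known from tooth enamel, had no read in control and was 0.222, 0.816, 1.13, 1.85 and 0 FPM in cirrhosis, and 1.23, 0, 0.890, 0.0564 and 0.546 FPM in cirrhosis & eplerenone. Cirrhosis replicate 5 and cirrhosis & eplerenone replicate 2 had no read either, and Mmp20 was at least 4.42-fold higher in cirrhosis (FDR 0.0308). Of the untested genes of the run, Mmp13 had 2 and 3 counts in cirrhosis replicates 1 and 2, 2 counts in cirrhosis & eplerenone replicate 5 and none elsewhere.

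**Figure D3:**
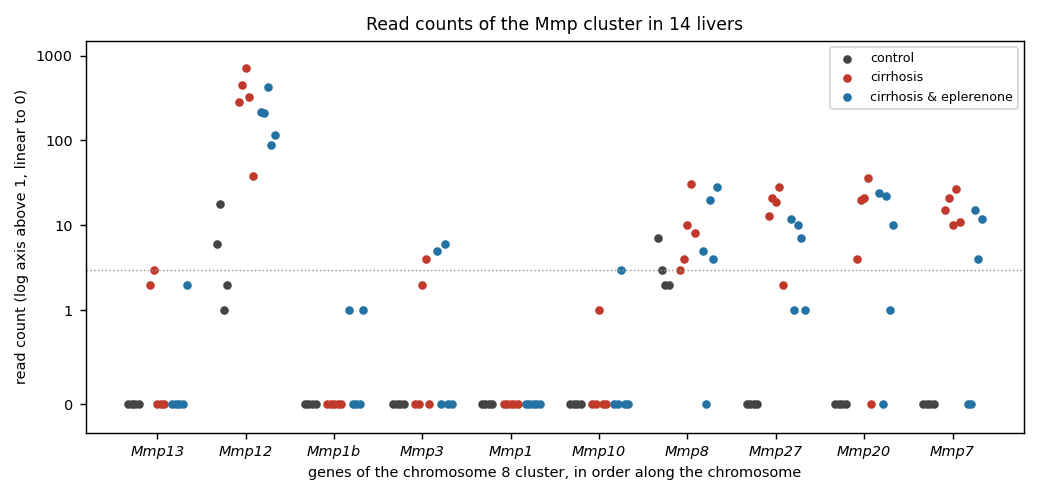
Read counts (vertical axis, logarithmic above 1 and linear down to 0) of the 10 Mmp genes on chromosome 8, in their order along the chromosome, for each of 14 livers coloured by group. The dotted line marks 3 counts. Control points of Mmp27, Mmp20 and Mmp7 all sit at 0, and Mmp12 reaches the highest counts in both CCl4 groups.

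Mmp23, a membrane-anchored protease (chromosome 5), was 8.47-fold higher in cirrhosis. It was 0.422, 1.39, 1.47 and 0.254 FPM in control, 10.4, 5.83, 13.7, 5.64 and 2.20 FPM in cirrhosis, and 2.56, 1.31, 6.07, 2.88 and 3.82 FPM in cirrhosis & eplerenone. The cirrhosis rats did not overlap the controls, and the log2FC was 3.08 (SE 0.63, FDR 0.00486). Membrane-type proteases did not move as a group. Mmp24 was higher, with a median of 8.55 FPM in control and 13.9 FPM in cirrhosis, where replicate 5 at 6.67 FPM lay below all controls (log2FC 1.10, SE 0.35, FDR 0.0399). Mmp16 was lower, with medians of 1.52 and 0.238 FPM and no overlap (log2FC -2.56, SE 0.76, FDR 0.0299), and Mmp17 was lower with medians of 3.14 and 1.22 FPM (log2FC -1.01, SE 0.33, FDR 0.0452). Mmp14 and Mmp15 were not called.

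Of the Adam proteases, which mainly release the outer parts of membrane proteins, Adam8, a protease of leukocytes, was higher in cirrhosis, at 2.61 to 10.4 FPM against 0.509 to 1.03 FPM in control (log2FC 2.91, SE 0.61, FDR 0.00589). Adam23, an adhesion protein of neurons with no working protease site, was lower, at 0.714 to 1.29 FPM against 1.45 to 3.82 FPM (log2FC -1.40, SE 0.39, FDR 0.0228). Adam17, which releases tumour necrosis factor, was 21.8, 18.6, 22.3 and 21.8 FPM in control, 20.5, 23.2, 19.1, 22.1 and 19.0 FPM in cirrhosis, and 15.8, 17.3, 19.5, 24.6 and 23.1 FPM in cirrhosis & eplerenone. Its groups overlapped closely, and the log2FC of -0.03 had an SE of 0.16 (FDR 0.919). Adam10, a sheddase of Notch and cadherins, was 8.44, 10.5, 7.94 and 13.5 FPM in control, 2.66, 14.6, 2.43, 6.31 and 6.78 FPM in cirrhosis, and 11.7, 9.70, 11, 8.92 and 6.23 FPM in cirrhosis & eplerenone. Its lowest values belonged to cirrhosis replicates 1 and 3, the libraries that shared low values over many genes, and it was not called (log2FC -0.62, SE 0.42, FDR 0.286). Adam9 was likewise lowest there, at 1.5 and 2.05 FPM against 7.28 to 16.8 FPM in the other cirrhosis rats, and was not called (FDR 0.222). Adam12, a protease that myofibroblasts are known to express, had 7 counts in all: 1 in control replicate 5, 1 in cirrhosis replicate 5 and 5 in cirrhosis & eplerenone replicate 3.

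Among the Adamts genes, Adamts2, which trims the N-terminal propeptide off fibrillar procollagen, was 4.84-fold higher in cirrhosis. It was 5.37, 2.89, 5.80 and 2.04 FPM in control, 23.3, 16.5, 32.5, 19.1 and 6.13 FPM in cirrhosis, and 13.9, 9.14, 20.2, 8.52 and 11.2 FPM in cirrhosis & eplerenone. All CCl4 rats lay above all controls, cirrhosis replicate 5 by the narrowest margin, and the log2FC was 2.28 (SE 0.44, FDR 0.0038). Adamts8 was 0.181, 0.405, 0.183 and 0.127 FPM in control, 4.27, 2.33, 3.34, 1.79 and 0.238 FPM in cirrhosis, and 0.818, 0.375, 2.02, 0.621 and 1.15 FPM in cirrhosis & eplerenone. Only cirrhosis replicate 5 and cirrhosis & eplerenone replicate 2 fell within the control range, and the log2FC was 3.37 (SE 0.74, FDR 0.00737). Adamts15, a protease of aggrecan and versican and the direct neighbour of Adamts8 on chromosome 8, was also higher, at 1.31 to 5.06 FPM against 0.572 to 1.34 FPM (log2FC 2.12, SE 0.46, FDR 0.00713). Adamts14, a relative of Adamts2 with the same substrate, did not overlap between the groups but was not called by edgeR (log2FC 1.62, SE 0.59, FDR 0.0642).

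Adamts13, the protease that shortens von Willebrand factor and that stellate cells of the liver make, was lower in cirrhosis. It was 29.4, 24.0, 23.2 and 28.9 FPM in control, 13.5, 8.61, 8.09, 6.10 and 14.9 FPM in cirrhosis, and 20.5, 32.0, 8.99, 13.7 and 10.5 FPM in cirrhosis & eplerenone. All cirrhosis rats lay below all controls, and in cirrhosis & eplerenone replicate 2 lay above and the other 4 below. The log2FC was -1.37 (SE 0.34, FDR 0.0138). Its substrate Vwf moved the other way in cirrhosis, from 12.7 ± 3.17 FPM (SD, n = 4) to 81.9 ± 42.1 FPM (SD, n = 5), with a log2FC of 2.69 (SE 0.54, FDR 0.00439).

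Adamtsl2, a matrix protein that binds fibrillin and latent TGF-beta binding protein and has no protease domain (ENSRNOG00000027742, chromosome 3), was 12.1-fold higher in cirrhosis. It was 17.3, 8.56, 14.7 and 13 FPM in control, 176, 159, 275, 149 and 50.0 FPM in cirrhosis, and 139, 65.1, 155, 91.4 and 154 FPM in cirrhosis & eplerenone. All 10 CCl4 rats lay far above the controls (log2FC 3.60, SE 0.43, FDR 0.000501). Adamtsl4, another fibrillin binding protein, was lower, with 27.9 to 41.0 FPM in cirrhosis against 43.0 to 64.3 FPM in control (log2FC -0.70, SE 0.22, FDR 0.0341).

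**Figure D4:**
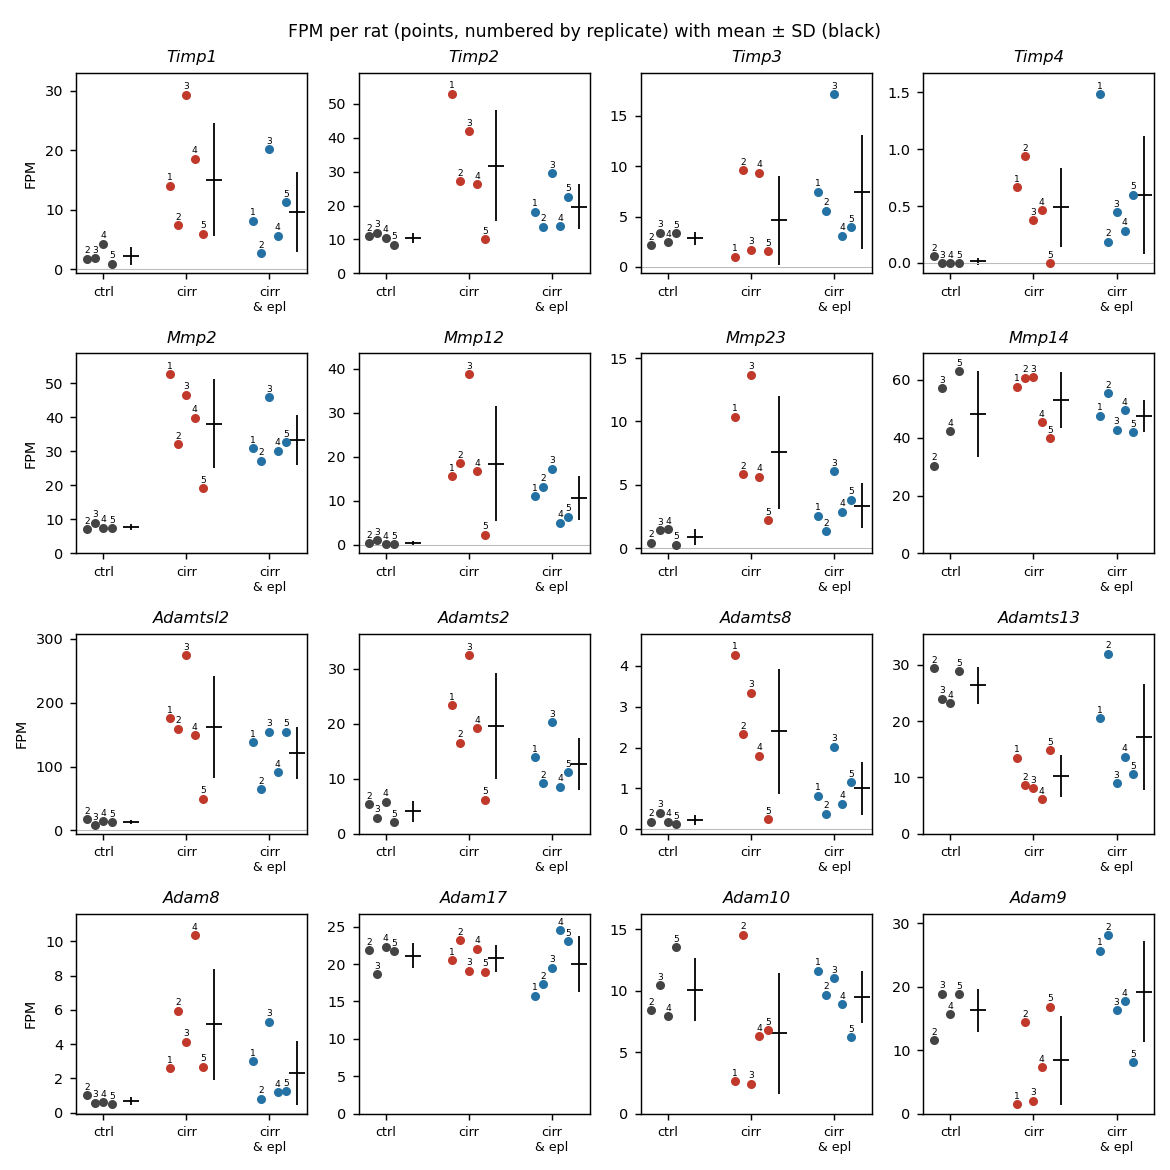
Level in FPM (vertical axes, separate scales) of 16 genes in each liver, with points numbered by replicate and black marks for the mean ± SD of control (n = 4), cirrhosis (n = 5) and cirrhosis & eplerenone (n = 5). Cirrhosis replicate 5 is the lowest cirrhosis rat for Timp1, Timp2, Mmp2, Mmp12, Mmp23, Adamtsl2, Adamts2 and Adamts8, and cirrhosis replicates 1 and 3 are the lowest for Adam9 and Adam10.

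Set side by side within each liver, the mean log2 level of the 4 Timp genes and that of the 40 other tested genes both lay above the control mean in all 10 CCl4 rats. The control rats themselves spread from -0.26 to 0.20 around their mean for the Timp genes and from -0.17 to 0.18 for the others. In cirrhosis replicates 1 to 5 the Timp mean was 1.56, 1.97, 1.75, 2.07 and 0.13 above that of control and the mean of the other genes 0.69, 0.62, 0.72, 0.77 and 0.20. In cirrhosis & eplerenone replicates 1 to 5 the Timp mean was 1.93, 0.75, 2.33, 0.90 and 1.61 above control and the other 0.55, 0.34, 0.81, 0.47 and 0.48. The Timp mean of cirrhosis replicate 5 lay within the control range and its mean of the other genes just past it. The Timp mean stood further from control than that of the other genes in the remaining 9 rats. The mean of the 14 tested Mmp genes alone was 1.57, 1.16, 1.65, 1.45 and 0.38 above control in cirrhosis replicates 1 to 5. In cirrhosis & eplerenone replicates 1 to 5 it was 0.91, 0.58, 1.22, 0.91 and 1.09. This Mmp mean lay above the Timp mean in cirrhosis replicates 1 and 5 and in cirrhosis & eplerenone replicate 4. In the other CCl4 rats it lay below the Timp mean. The other genes include the Adamts-like genes and others without protease activity, and these means are a description with no test. Timp4 and, among the other genes, Mmp7, Mmp20, Mmp27, Mmp28, Adamts5 and Adamts8 passed the filter through the CCl4 groups alone. They had little room to lower these means, and Timp4 is 1 of only 4 genes in the Timp mean. Means without them were not taken. The ratio of inhibitor to protease depended on the protease set against it. The log2 ratio of Timp1 to Mmp14 lay 1.45 to 3.43 above the control mean in cirrhosis, with controls at -1.39 to 1.23. That of Timp1 to Mmp2 lay at -0.20 to 1.25 in cirrhosis and -0.88 to 1.13 in control, and that of Timp1 to Mmp12 at -3.69 to -1.01 in cirrhosis and -1.57 to 2.23 in control. In cirrhosis & eplerenone these log2 ratios lay at 0.18 to 3.40, -1.37 to 0.73 and -4.62 to -1.56 in the same order. Each of these ranges overlapped that of control.

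Other genes of matrix turnover were taken from fixed lists. Of 5 inhibitors outside the Timp family (A2m, Reck, Serpinf2, Serpinh1 and Tfpi2) none was called in cirrhosis by edgeR, 2 had an unadjusted p below 0.05, and DESeq2 called A2m. A2m, the plasma inhibitor that traps proteases of all classes, had a log2FC of 2.70 (SE 0.94, FDR 0.0546), Reck, a membrane inhibitor of Mmp proteins, 0.21 (SE 0.46), and Tfpi2 -1.30 (SE 0.51, FDR 0.0804). Of 4 genes of plasminogen activation 2 were called higher in cirrhosis, the activator Plat (log2FC 1.85, FDR 0.0363) and the urokinase receptor Plaur (log2FC 2.04, FDR 0.0199), and none lower. Of 9 tested activators and partners of the proteases 3 were higher, among them Rhbdf1 (log2FC 1.14, FDR 0.00711) and Rhbdf2 (log2FC 1.66, FDR 0.00854), which carry Adam17 to the cell surface, and Tspan17 (log2FC 3.51, FDR 0.0155), while Tspan14, which binds Adam10, was lower (log2FC -1.01, FDR 0.0490). Of 7 tested other matrix proteases none was higher and Bmp1, the procollagen C-proteinase, was lower (log2FC -0.60, FDR 0.00963). Of 9 tested substrates 6 were higher and 1 lower: Col1a1 (log2FC 3.36, FDR 0.00125), Col3a1, Col4a1, Eln, Nid1 and Vwf rose, and Fn1 fell by 0.62 on the log2 scale (FDR 0.0425). The median log2FC of the last 4 lists was 1.15, 0.73, 0.49 and 1.15 in the same order, beside -0.01 for all genes.

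Cirrhosis & eplerenone against control asks what still differs from normal liver under the drug. Of the 44 tested genes 6 were called, all higher (edgeR, same threshold). Of all genes 5.22% were called, 4.33% higher and 0.895% lower. These were Mmp2 (log2FC 2.11, SE 0.26, FDR 0.00127), Mmp12 (log2FC 4.69, SE 0.80, FDR 0.00556), Mmp27 (at least 1.68-fold higher, FDR 0.0459), Adamts2 (log2FC 1.65, SE 0.43, FDR 0.0388), Adamtsl2 (log2FC 3.18, SE 0.42, FDR 0.00248) and Timp4. From 59 counts against 1, Timp4 was 40.4 times the control level (95% exact interval 6.98 to 1623, counting error only, FDR 0.0331). Timp4 and Adamts2 were each called in 7 of the 14 fits that leave out 1 library, and Mmp27 in 3 of the 14. Mmp27 and Timp4 passed the filter on low counts through the CCl4 groups alone, so they had little room to come out lower. Without control replicate 3 the log2FC of Mmp12 was 5.79. Timp1 lay just past the threshold (log2FC 2.10, SE 0.60, FDR 0.0572), Timp2 had an FDR of 0.169 although all 5 rats exceeded all controls (log2FC 0.90, SE 0.37), and Timp3 had an FDR of 0.260 (log2FC 1.39, SE 0.67). The groups did not overlap for 7 tested genes that were higher (6.42% of all genes tested) and for Adamtsl3, which was lower (4.46%). DESeq2 called 13 of the 44 (10.6% of all genes), and at an unadjusted p below 0.05 edgeR had 18 (20.5% of all genes). Leaving out 1 library changed the number called to between 3 (without any 1 of the 4 controls or without cirrhosis & eplerenone replicate 3) and 12 (without cirrhosis & eplerenone replicate 2), with 1.5% to 8.88% of all genes called. It was 11 without cirrhosis replicate 5 (7.52% of all genes), and Mmp2, Mmp12 and Adamtsl2 were called in each of these 14 fits. The median log2FC was 1.74 for Timp, 0.52 for Mmp, 0.08 for Adam, 0.53 for Adamts and -0.32 for the Adamts-like genes, beside 0.01 for all genes. This comparison and the one before share their control rats. In those last 4 lists of matrix turnover genes Plaur and Rhbdf2 were called higher, Bmp1 lower, and 6 of 9 substrates higher, Col1a1 with a log2FC of 3.01 (FDR 0.00537).

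Cirrhosis & eplerenone against cirrhosis compares CCl4 rats with and without eplerenone. The rats of both groups were picked by outcome. The drug was given in hazelnut spread, and the paper does not say whether the cirrhosis group received the spread. Drug, spread and choice of rats cannot be told apart. None of the 44 tested genes was called by edgeR or by DESeq2, which called 0.0139% and 0.513% of all genes, and the lowest FDR among the 44 was 0.312. At an unadjusted p below 0.05 there were 8 of the 44 (14.4% of all genes, 6.77% higher and 7.63% lower). Of these, Adamts1, a protease of versican and aggrecan, was higher with eplerenone (log2FC 0.99, SE 0.28), as were Adamts13 (0.74, SE 0.32), Mmp17 (0.80, SE 0.32), Adam9 (1.19, SE 0.53) and Adam23 (0.82, SE 0.37). Adam8 (-1.14, SE 0.51), Mmp23 (-1.17, SE 0.52) and Mmp24 (-0.78, SE 0.32) were lower, and none of these differences passed the adjustment. For Adamts1 the cirrhosis rats were at 5.18 to 8.63 FPM and the cirrhosis & eplerenone rats at 18.4, 14.6, 13.3, 13 and 5.41 FPM, so replicate 5 alone fell within the cirrhosis range. For the inhibitors the log2FC was -0.64 (SE 0.52) for Timp1, -0.69 (SE 0.34) for Timp2, 0.68 (SE 0.61) for Timp3 and 0.28 (SE 0.74) for Timp4, and for the main proteases -0.19 (SE 0.23) for Mmp2 and -0.79 (SE 0.57) for Mmp12. No tested gene had groups that did not overlap (0.423% of all genes higher, 0.541% lower). Of the 20 genes called in cirrhosis, 19 had a cirrhosis & eplerenone mean between those of control and cirrhosis, and Timp4 did not. Of all 2906 genes called in cirrhosis 90.7% lay between, and genes picked for a high or low cirrhosis mean tend to place another group between, so nothing is read from this count.

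This result depended on the libraries. Without cirrhosis replicate 5 and cirrhosis & eplerenone replicate 3, 7 of the genes were called, beside 9.16% of all genes: Timp2, Mmp23, Mmp24, Adam8, Adamts2 and Adamts8 lower and Adamts1 higher with eplerenone. Timp2 then had a log2FC of -1.13 (FDR 0.0214). The pair was left out with earlier results of these data known, and since both lie toward the other group on the first principal component, leaving them out widens the difference between the groups by construction. Within the 5 rats of prefix 15, which include cirrhosis replicates 1 and 3, the log2FC was -1.62 for Timp1, -1.34 for Timp2, -2.35 for Mmp23 and 1.49 for Adamts1. Within the 5 rats of prefix 20, of which cirrhosis replicate 5 and cirrhosis & eplerenone replicate 3 are 2, it was 0.03, 0.29, 0.13 and 0.53 in the same order, so the first 3 took the other sign. The part of the prefix and that of these libraries cannot be told apart. No gene was called within either prefix or with the prefix as a factor.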

How the data were processed

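Per the labels and the study's methods, poly(A) RNA of snap-frozen liver was sequenced as 150 bp read pairs, mapped to the rat genome rn6 with HISAT2 2.1.0 and counted over exons with featureCounts, reads with several map positions included, and the authors deposited raw counts per gene with Ensembl identifiers, symbols and chromosomes. The versions are those in the submitters' processing notes. The labels list 15 rats and 14 have a column: control replicate 1 was not analysed here. The paper states that 1 control differed from the other 4 in a principal component analysis and was left out. It does not name that rat by number. The control ranges given here rest on the remaining 4 rats. Replicates are separate rats, and within the groups no pair of libraries agreed within sampling noise (chi-square per degree of freedom 25.2 to 282 over 26 pairs).

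From the deposited counts, 14417 of 32623 genes passed edgeR's filterByExpr (minimum count 10), libraries were scaled by trimmed mean of M values (TMM, factors 0.847 to 1.40), and FPM are counts per 1000000 of the scaled library. The 3 groups entered 1 fit of edgeR 4.0.16's quasi-likelihood test (R 4.3.3), two-sided, with Benjamini-Hochberg adjustment over all tested genes, called at FDR below 0.05. DESeq2 1.42.0 on the same genes, DESeq2's size factors in edgeR, library totals, no filter, adjustment over protein-coding genes, each library left out, pairs of libraries left out, fits of only the groups compared, and the replicate number or animal prefix as a factor were alternatives. Scripts were tested on simulated data. A fold against a group at 0 used a floor of 3 counts per library, and mean log2 levels used a prior count of 2. The SE of an edgeR log2FC was derived as its absolute value divided by the square root of the test's F statistic.

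The genes, lists and tests were chosen with earlier results of these data known. Named with fold changes were all members called in any comparison and every Timp gene. Shown in every rat were the Timp genes, Mmp2, Mmp9, Mmp12, Mmp13, Mmp14, Adam10, Adam12, Adam17, Adamts13 and, per comparison, the 8 called genes with the highest absolute log2FC. Mmp8, Mmp15, Adam9, Adam22, Adamts1, Adamts5, Adamts14, Adamts16 and Adamtsl3 were named after their values were seen. A planned split of the proteases by their zinc site was not run, and 1 gene of the list of other inhibitors is not reported here. RefSeq promoters (GRCr8) gave sequence only, since the counts use rn6. Same-numbered rats of different groups did not deviate together (13 pairs, correlation of deviations -0.33 to 0.18, 3 over 0.1), so the numbers were not taken as pairs.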

Additional observations from a re-analysis of the deposited data

Results flagged for a closer look

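Single rats far from the rest of their group, by Dixon's criterion in groups of 4 or 5, were found in 7 of 77 groups tested (9.09%). Chance flags about 1 in 20 where values are not tied at 0. Where all other rats are at 0, a single rat with reads is always flagged, so the 2 rates cannot be compared. Mmp2 in cirrhosis & eplerenone replicate 3 was 45.9 FPM, the highest of 5. Adam12 in the same rat was 0.202 FPM, from 5 counts, and the other rats of that group had none. Adam17 in control replicate 3 was 18.6 FPM, the lowest of 4. The other 4 rest on 1 or 2 reads and stand apart only because the remaining rats of the group had none: Adam12 in control replicate 5 (0.0636 FPM) and cirrhosis replicate 5 (0.0595 FPM), Mmp13 in cirrhosis & eplerenone replicate 5 (0.109 FPM) and Timp4 in control replicate 2 (0.0603 FPM).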

How the results depend on the processing

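For cirrhosis against control 14 to 21 members were called with 1 library left out, beside 9.26% to 32.1% of all genes. The number of members called was 14 with the replicate number as a block, 20 without it (20.2% of all genes). It was 9 without cirrhosis replicates 1 and 3 (7.17% of all genes, fewer samples, a choice added after seeing the data). Fewer than 14 of the 14 fits that leave out 1 library called Mmp17 (5), Adamtsl4, Mmp20 and Mmp24 (8 each), Mmp16 (9) and Adam23 and Timp4 (11 each). Library totals without a scaling factor moved the median log2FC of all genes from -0.01 to 0.28 and turned the split of calls from 15 higher and 5 lower to 17 higher and 2 lower. For cirrhosis & eplerenone against control 6 members were called (5.22% of all genes), 10 with library totals and 13 by DESeq2 (10.6% of all genes). It was 3 with the replicate block and 3 to 12 with 1 library left out (1.5% to 8.88% of all genes). The share of all genes called with the block or with library totals is not given here. The counts under those settings are therefore not read as particular to the members. For cirrhosis & eplerenone against cirrhosis none was called, also with 1 library left out (0 to 0) and with the block. Without cirrhosis replicate 5 and cirrhosis & eplerenone replicate 3, 7 were called (9.16% of all genes). In that comparison the log2FC took the opposite sign within the rats of prefix 20 for Mmp12 (0.023), Mmp2 (0.31), Mmp23 (0.13), Mmp24 (0.012), Timp1 (0.026) and Timp2 (0.29), and for Mmp2 without cirrhosis replicates 1 and 3 (0.12). The cause was not tested. The other alternatives kept the counts within 1.5 times. At this depth, genes under about 0.2 FPM cannot be told from absent.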

Other observations

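Some genes with too few reads for a test were uneven between rats. Adamts16 had 67 counts in all, of which 46 were in cirrhosis replicate 5 (2.74 FPM), the cirrhosis rat with the lowest Timp1, Mmp2, Mmp12 and Adamtsl2, and 13 in cirrhosis & eplerenone replicate 3 (0.526 FPM). The controls had none. Mmp8 (neutrophil collagenase) was 0.122 to 0.422 FPM in control and was highest in cirrhosis replicate 4 (1.59 FPM) and cirrhosis & eplerenone replicate 5 (1.53 FPM), the rats that also had the highest summed level of the neutrophil markers in their groups, 19.5 and 25.2 FPM, against 0.572 to 1.45 FPM in control. Whether neutrophils account for these reads was not tested. Adam22, an adhesion protein without a working protease site, had no read in control and 1 to 8 counts in 8 of the 10 CCl4 rats.

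Adamts15 and Adamts8, next to each other on chromosome 8 in RefSeq's GRCr8 annotation, were both called higher in cirrhosis. Adamts1 and Adamts5, next to each other on chromosome 11, were not called there, with a log2FC of -0.27 (SE 0.30) for Adamts1 and 2.15 (SE 0.81, FDR 0.0714 by edgeR, Benjamini-Hochberg adjusted) for Adamts5, which DESeq2 called higher. The difference between the 2 neighbours was not tested. Adamts5 and Adamts8 passed the filter on low counts through the CCl4 groups alone, so they had little room to come out lower. The shared direction of Adamts15 and Adamts8 is no evidence that they moved as a unit.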
